A study of Mus musculus with 2 samples.

Results

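The cells described here are the Ly6c2- and Plac8-positive, C1q-low cells of the monocyte and macrophage gate in mouse skin wounds, called monocytes below. They were chosen by their counts of unique molecular identifiers (UMIs, each standing for 1 captured transcript). A barcode was used from 500 UMIs and 200 genes upward, if mitochondrial transcripts gave under 15% of its UMIs. It entered the gate with at least 0.1% of its UMIs from Tyrobp and Fcer1g, at least 0.03% from Csf1r, Adgre1, Cd68 and Ms4a7, under 1% from S100a8 and S100a9, and under 1% from Col1a1, Col1a2 and Col3a1. A gated cell was a member when Ly6c2 and Plac8 together gave at least 3 UMIs and C1qa, C1qb and C1qc together gave under 0.1% of its UMIs. The rule kept 295 cells of 8871, with 151 in the library of young mice and 144 in that of aged mice. The other 1881 gated cells, 786 young and 1095 aged, serve as the contrast.

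Both libraries came from wild-type male C57BL/6 mice. Full-thickness 10 mm wounds of the back skin were taken at day 6, dissociated with collagenase and dispase at 37 °C, freed of red cells and passed through a strainer before droplet-based 3′ single-cell RNA sequencing. The young group was 2 months old and the aged group 24 months old. Each group is 1 library of several pooled mice, and no sort preceded loading, so a difference between the libraries has no replicate check and cannot be told apart from a difference between the pools or preparations. The study asked how the senescence response of the wound differs with age.

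Classical monocytes leave the bone marrow and enter injured tissue through the chemokine receptor Ccr2. They carry the surface protein Ly6C, encoded by Ly6c2, and in the tissue they lose it as they turn into macrophages or, under other cues, into antigen-presenting cells with MHC class II on their surface. Plac8 is a small cysteine-rich protein abundant in Ly6C-high monocytes, and Csf1r is the receptor for the growth factor that keeps monocytes and macrophages alive. C1q, the first component of the classical complement pathway, is made by mature tissue macrophages, and its absence in the rule is what separates the members from those cells.

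Among the 22 lists of pathways and functions described below, which leave out the markers of other cell types, MHC class II had the highest median aged-to-young ratio in these monocytes, and 2 of its promoters are shown for that reason. They are the 250 bases before and 50 bases after the start of H2-Aa and H2-Eb1, from RefSeq on GRCm38.p6, 5′ to 3′ on the coding strand. H2-Aa encodes the alpha chain of the class II molecule I-A and lies on the minus strand at chr17:34287774-34288073. H2-Eb1 encodes the beta chain of I-E and lies on the plus strand at chr17:34305617-34305916. Capitals mark exact matches to CTGATTGG, the Y box that class II promoters share, and to TGACGTCA, the X2 box next to it.
H2-Aa: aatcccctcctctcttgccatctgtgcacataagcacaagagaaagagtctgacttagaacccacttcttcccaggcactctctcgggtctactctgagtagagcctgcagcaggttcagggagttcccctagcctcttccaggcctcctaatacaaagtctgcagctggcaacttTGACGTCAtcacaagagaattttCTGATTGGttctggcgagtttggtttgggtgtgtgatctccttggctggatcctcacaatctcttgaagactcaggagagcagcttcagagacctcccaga
H2-Eb1: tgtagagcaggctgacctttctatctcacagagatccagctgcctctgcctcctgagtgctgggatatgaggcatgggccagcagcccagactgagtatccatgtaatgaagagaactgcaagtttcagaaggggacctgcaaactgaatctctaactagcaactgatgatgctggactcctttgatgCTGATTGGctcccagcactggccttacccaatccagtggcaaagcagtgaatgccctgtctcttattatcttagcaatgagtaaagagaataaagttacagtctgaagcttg
In the H2-Aa promoter the X2 match begins 74 bases and the Y match 51 bases before the start, with 15 bases between them, and the Y match in H2-Eb1 begins 62 bases before it. Searched on both strands, CTGATTGG was in 4.10% and TGACGTCA in 1.79% of 32851 promoters of the same 300 bases. Of the 8 class II genes with an entry, 4 held CTGATTGG and 1, H2-Aa, held TGACGTCA. The 2 motifs do not overlap each other, and a match is a match of letters only.

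The young members held 2291843 UMIs and the aged members 1968386. A young member had a median of 14695 UMIs (range 2749 to 47482) and an aged member 12105 (1683 to 46787), with medians of 3133 and 3172 detected genes. The other gated cells had medians of 16681 and 12921 UMIs. No member barcode occurred in both libraries, against 3 barcodes over all cells kept. Levels below are UMIs per 1000000 UMIs of a group of cells (CPM), and the ranges in brackets are exact 95% intervals that cover counting error only.

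For 3 of the 4 markers of these cells, the UMIs of each cell were drawn down to 2000 and shallower cells were left out. These were 0 young and 1 aged members, 24 and 53 of the other gated cells and 22 and 16 of the collagen-rich cells named below. Ly6c2 and Plac8 are in the rule and Csf1r is in the gate, so only Ccr2 bears on the name independently of the choice of cells. Ly6c2 was then seen in 41.1% of young and 33.6% of aged members. The other gated cells had it in 2.23% and 3.07%. Cells with at least 1% of collagen UMIs and under 0.1% from Tyrobp and Fcer1g (collagen-high cells), which should lack it, had it in 0.136% and 0.0729%. The limit on Tyrobp and Fcer1g also takes out collagen-rich cells with myeloid RNA. The median depths of the collagen-high cells before thinning were 42753 and 50832 UMIs. Ccr2 was seen in 31.1% and 43.4% of members, against 6.56% and 15.8% of the other gated cells and 0.205% and 0.292% of collagen-high cells. Plac8 was seen in 70.9% and 74.8% of members, but also in 48.2% and 44.9% of collagen-high cells, so Plac8 alone does not mark a monocyte in this wound. The other gated cells had it in 4.99% and 13.2%. Without thinning, at the depths given above, the shares of members were 75.5% and 59.7% for Ly6c2, 72.2% and 81.9% for Ccr2, and 90.7% and 97.2% for Plac8. Csf1r, seen in 94.7% and 93.8% of members without thinning, was at 297 CPM in young and 327 CPM in aged members, 0.963 and 0.924 times its level in the other gated cells, and does not separate the 2 populations.

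Not every member carried both genes of the rule. In the young library 100 of 151 members (66.2%) had UMIs of Ly6c2 and Plac8, 37 (24.5%, 17.9 to 32.2%) of Plac8 only and 14 (9.27%) of Ly6c2 only. In the aged library 82 of 144 (56.9%) had both, 58 (40.3%, 32.2 to 48.8%) Plac8 only and 4 (2.78%) Ly6c2 only. Members without a Ly6c2 UMI therefore made up a larger share of the aged cells, 1.64 times the young share (1.07 to 2.55). The median member had 15 UMIs of the 2 genes in the young and 12 in the aged library, and the highest had 156 and 86.

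Cells just inside and just outside the rule are given as a description. In the young library the 15 C1q-low cells with exactly 3 UMIs of Ly6c2 and Plac8 had 126 CPM of Ccr2, and the 14 with 2 UMIs, just outside, had 306 CPM. The aged values were 157 CPM in 18 cells inside and 142 CPM in 13 cells outside. Across the C1q limit, Ccr2 was at 183 CPM in 10 young cells just inside and 151 CPM in 13 just outside, and at 257 CPM in 11 and 318 CPM in 18 aged cells. At neither limit was Ccr2 lower outside than inside in both libraries.

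The share of monocytes among all wound cells was about the same in both libraries, while their share of the gate was lower in the aged one. Members were 3.24% (2.75 to 3.79%) of the young and 3.42% (2.89 to 4.02%) of the aged cells kept, a ratio of 1.06 (0.834 to 1.34). The gate itself held 20.1% of young and 29.4% of aged cells, 1.46 times as much. Of the gated cells, 16.1% (13.8 to 18.6%) were members in the young and 11.6% (9.89 to 13.5%) in the aged library, 0.721 times as many (0.570 to 0.912).

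The lower share of the gate lay on the C1q side of the rule. Gated cells with at least 3 UMIs of Ly6c2 and Plac8 were 204 of 937 (21.8%) in the young and 317 of 1239 (25.6%) in the aged library, 1.18 times as many (0.983 to 1.41). Of these, 151 (74.0%, 67.4 to 79.9%) were C1q-low in the young library, but only 144 (45.4%, 39.9 to 51.1%) in the aged one, 0.614 times as many (0.485 to 0.776). The remaining 53 young and 173 aged cells carried Ly6c2 or Plac8 together with C1q. In those C1q-high cells Ly6c2 was at 132 CPM (young) and 104 CPM (aged), below the 340 and 331 CPM of the members and above the 2.90 and 2.59 CPM of C1q-high cells with fewer than 3 UMIs.

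**Figure D1:**
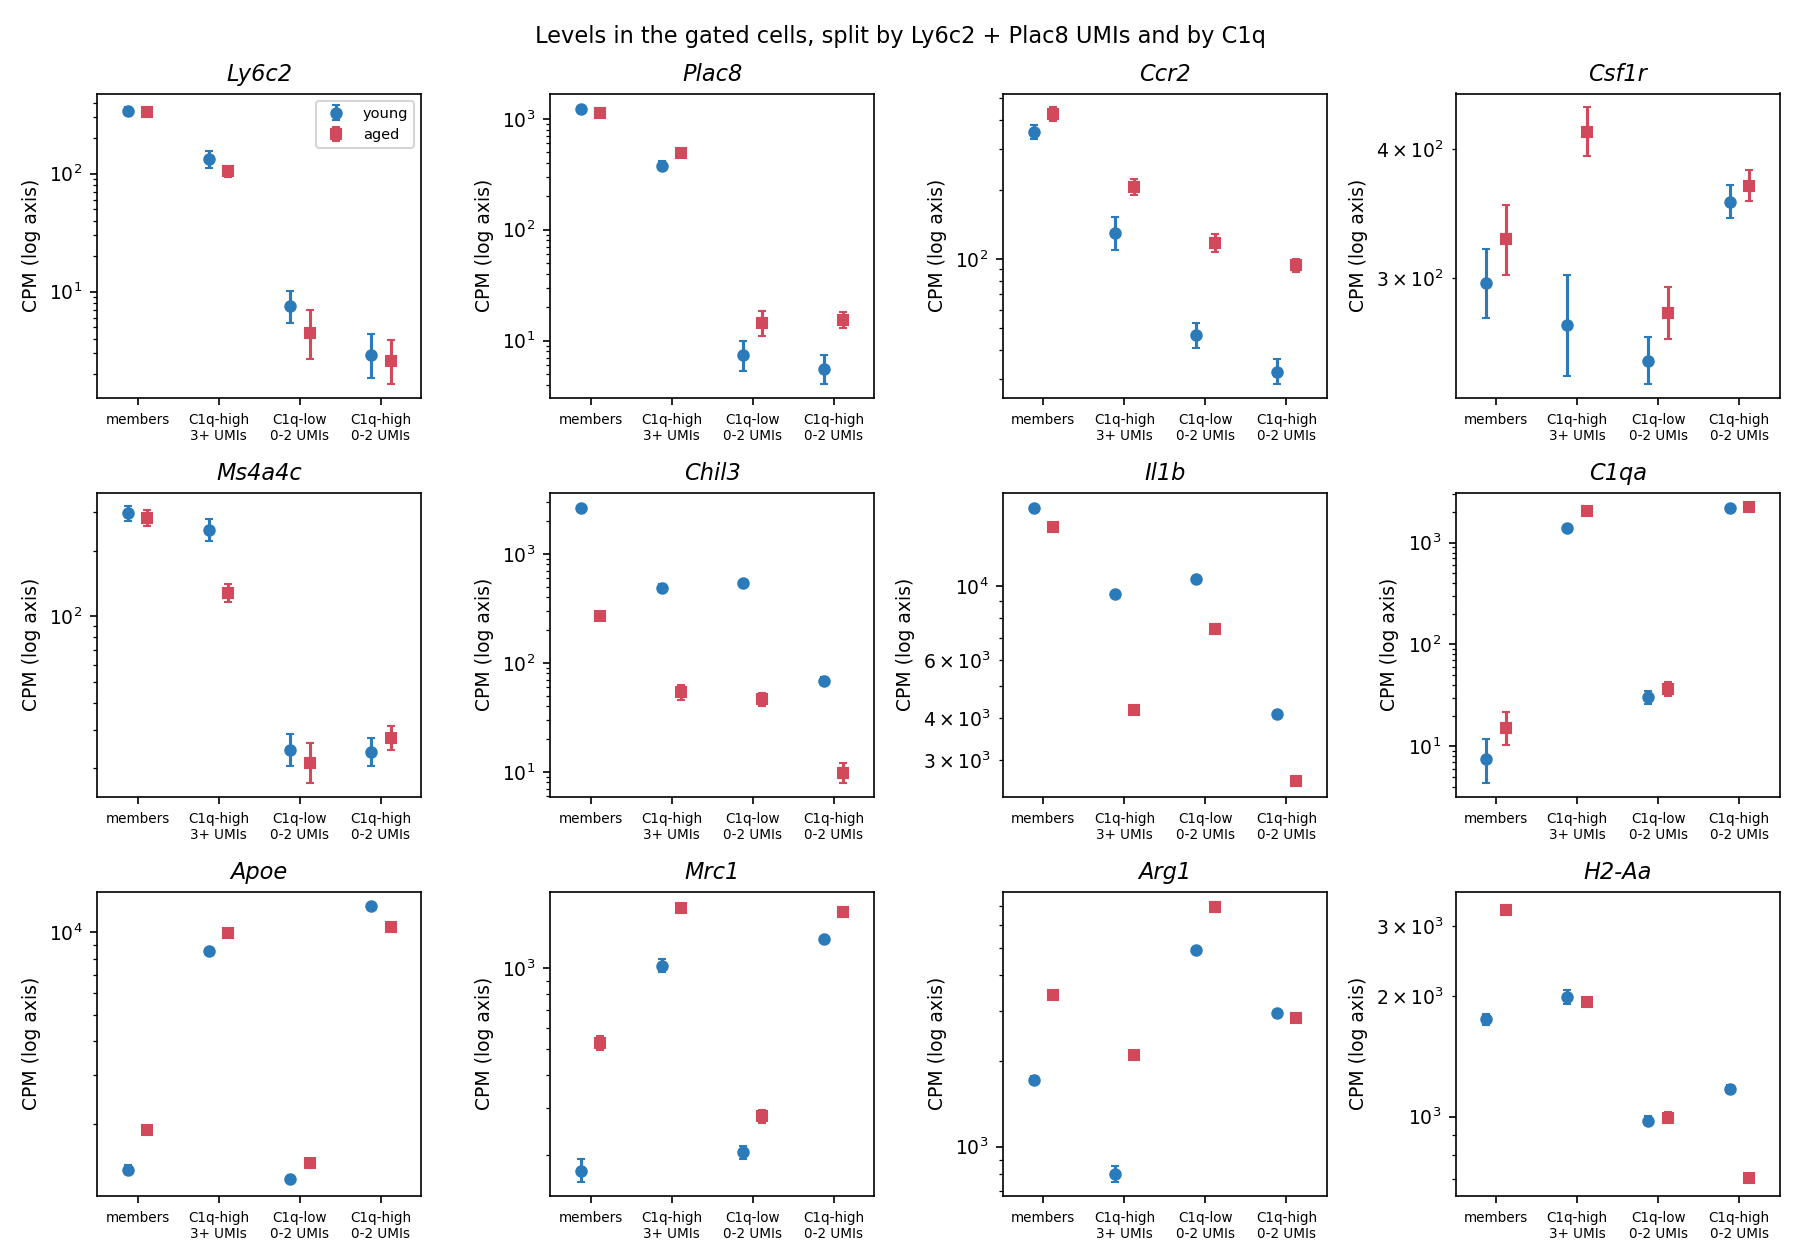
Levels (CPM, log axis) of 12 genes in the gated cells, split by at least 3 against 0 to 2 UMIs of Ly6c2 and Plac8 and by C1q under or over 0.1% of UMIs, with young (circles) and aged (squares) cells side by side. Bars are exact 95% counting intervals, some smaller than the symbols. Ly6c2, Plac8, Ccr2 and Il1b are highest in the members in both libraries, and C1qa and Apoe are highest in C1q-high cells.

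The rule chose the members against the other gated cells, so the values of this contrast only describe the cells. Of 9847 genes with at least 50 UMIs in each library, 173 (1.76%) were at least 2-fold higher in members in both libraries and 572 (5.81%) at least 2-fold lower. Of the 23 classical monocyte genes among them 8 were higher and none of the 23 lower. The genes highest in members after those of the rule were Ly6a2 and Sirpd. Ly6a2, a Ly6-family gene, was at 51.1 CPM in young and 31.5 CPM in aged members, 47.1 and 64.3 times its level in the other gated cells. Sirpd was 18.5 and 19.98 times higher.

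Chil3, the chitinase-like protein Ym1 of monocytes and neutrophil precursors, was 9.41 times higher in young and 9.72 times higher in aged members than in the other gated cells. Ifitm6, of the interferon-induced transmembrane family, was 16.3 and 6.30 times higher, and its relative Ifitm1 4.85 and 9.94 times. Ms4a4c, a membrane-spanning gene of the Ms4a cluster, was 7.13 and 6.20 times higher, the aspartic protease Napsa 6.37 and 6.06 times, and the Ly6-family gene Ly6i 4.71 and 6.39 times. Dgkg, a diacylglycerol kinase, was 7.55 and 4.70 times higher, Rab27a, a GTPase of granule release, 4.56 and 4.91 times, and Ramp1, a receptor-activity-modifying protein, 5.41 and 4.40 times. Ccr2, at 356 and 426 CPM in members, was 7.85 and 3.502 times its level in the other gated cells.

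The genes lowest in members included several known from resident and mature macrophages. Ccl8, a chemokine of resident macrophages, had 7 UMIs in all young members and 3 in all aged ones, against 2243 and 3354 CPM in the other gated cells. Lyve1, the hyaluronan receptor of perivascular macrophages, had 1 UMI in each library. The haemoglobin scavenger receptor Cd163 had 0 UMIs in young and 5 in aged members, against 126 and 83.8 CPM in the other cells. Folr2, a folate receptor of resident macrophages, had 1.31 and 20.3 CPM in members against 157 and 325 CPM, and Gdf15, a stress-induced cytokine of the TGF-beta family, 12.2 and 1.52 CPM against 261 and 269 CPM.

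Npl, Fcna, Pdgfc, Sgsh, Hpgds, Ccl12 and Cbr2 completed the 12 lowest. Apoe, the lipid carrier that tissue macrophages make in quantity, was at 1358 and 1889 CPM in members against 7823 and 7993 CPM. Adgre1, which encodes the macrophage protein F4/80, was at 79.9 and 104 CPM against 191 and 215 CPM, so it was lower but not absent in the members. C1qa, which the rule limits, was at 7.42 and 15.2 CPM.

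In both libraries Il1b and Cxcl2 were among the 3 genes with most UMIs in members, together with the iron-storage gene Fth1. Il1b, the inflammatory cytokine interleukin-1 beta, was at 17216 CPM (young) and 15052 CPM (aged). The neutrophil-attracting chemokine Cxcl2 was at 34420 CPM and 15521 CPM, and Fth1 at 25718 CPM and 17860 CPM. Saa3, an acute-phase serum amyloid, was the 10th gene of the young members at 5075 CPM, and Cd74, the invariant chain of MHC class II, the 8th of the aged members at 6220 CPM.

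The rest of the results compare aged with young members. Of 6802 genes with at least 50 UMIs over both, 1298 (19.1%) were at least 1.5-fold higher in aged members and 388 (5.7%) at least 1.5-fold lower. The median gene was 0.22 higher on the log2 scale in aged members by CPM. Trimmed-mean (TMM) scaling, which removes that shift, lowered every aged-to-young ratio by 0.22 on the log2 scale and gave 653 genes higher and 695 lower. The share of higher genes among those past 1.5-fold was thus 77.0% by CPM and 48.4% by TMM. A gene list is described by its median log2 ratio after 5 CPM were added to each level, and on that scale the median over all 6802 genes was 0.18 by CPM and 0.003 by TMM. List counts are to be read beside the shares over all 6802 genes, 19.1% higher and 5.7% lower by CPM. For list counts by TMM these are 653 higher and 695 lower genes of 6802. In the other gated cells 1889 of 11465 genes were higher and 544 lower in the aged library. Among the 6793 genes compared in both populations, 101 of the 384 lower in aged members were also lower in the aged other gated cells, and 320 of the 1294 higher genes were also higher there. Over all 6802 genes compared in members, 678 were higher and 170 lower in the aged other gated cells. Ratios of the other gated cells stand beside those of members below, and with 1 library per age no difference between the 2 populations was tested.

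**Figure D2:**
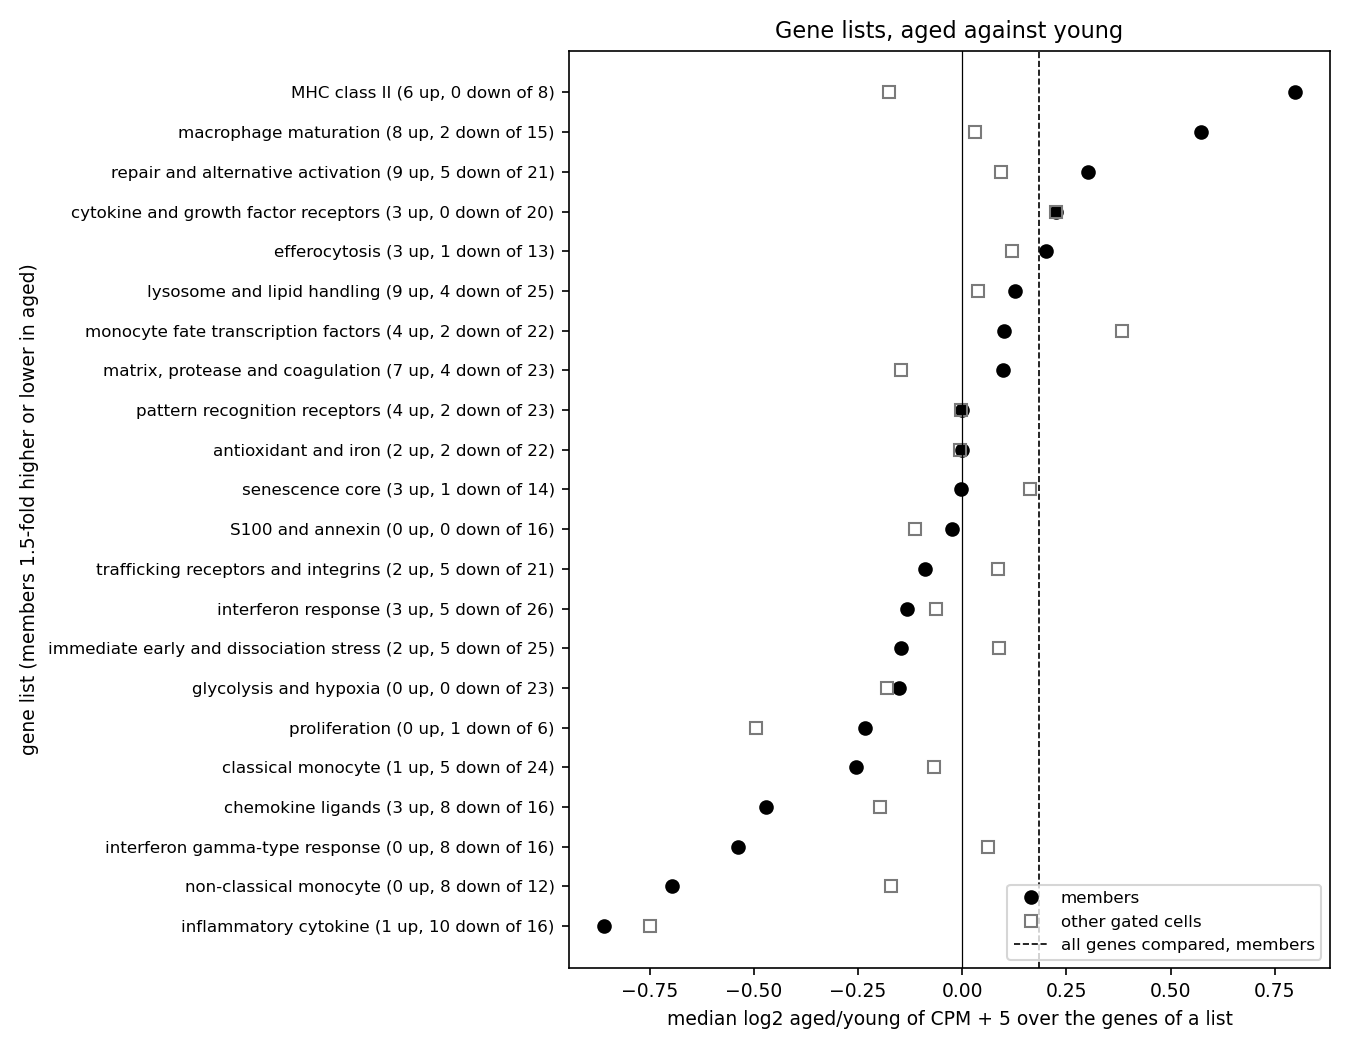
Median log2 aged-to-young ratio (CPM plus 5) of the genes of each of 22 lists, in members (filled circles) and in the other gated cells (open squares), with the numbers of genes at least 1.5-fold higher or lower in aged members. The dashed line is the median of all 6802 genes in members, 0.18. Among these 22 lists, which leave out the markers of other cell types, MHC class II is highest, at 0.80, and the inflammatory cytokines are lowest, at −0.86.

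The genes that define the cells differed little between the ages. Ly6c2 was at 340 CPM in young and 331 CPM in aged members, a ratio of 0.974 (0.877 to 1.08), and Plac8 at 1224 and 1122 CPM, 0.917 (0.867 to 0.970). Ccr2 was 1.20 times as high in aged members (1.09 to 1.32) by CPM and 1.03 times by TMM. The same ratio in the other gated cells was 2.68 for Ccr2 and 3.06 for Plac8. Csf1r had a ratio of 1.10 (0.989 to 1.23) by CPM, and by TMM it fell below 1, to 0.9498. The rule set Ly6c2 and Plac8 in both groups of members by the same limit.

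Within the classical monocyte list, by contrast, some secreted and granule genes were far lower in aged members. Of 24 genes 5 were lower and 1 higher, against backgrounds of 5.7% and 19.1%, and the median was −0.25, with −0.07 in the other gated cells. By TMM 10 of the 24 were lower and 1 higher, with a median of −0.47. Chil3 was at 2657 CPM in young and 270 CPM in aged members, 9.83-fold lower (ratio 0.102, 0.0929 to 0.111). The same ratio was 0.0985 in the other gated cells. Chil3 was at 0 in 27 of 151 young and 73 of 144 aged cells, and its median over cells was 13.2 and 0 UMIs per 10000. The lower level was thus seen over many cells and not in a few.

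Hp, the haemoglobin-binding haptoglobin, was at 902 and 313 CPM (ratio 0.347, 0.317 to 0.380, and 0.372 in the other gated cells), with 19 young and 63 aged cells at 0. The glutathione transferase Mgst1 had a ratio of 0.486. Ly6c1 had 23.6 and 3.56 CPM, but 10 cells held all of its UMIs in each library. Lyz2, the myeloid lysozyme, had a ratio of 0.767, while the coagulation factor F13a1 (1158 and 1119 CPM) and the proteoglycan Vcan (850 and 813 CPM) were at like levels. Fn1, the adhesive matrix protein fibronectin, was the higher gene of the list, at 848 and 1616 CPM (ratio 1.91).

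Saa3 and Wfdc21, 2 secreted proteins of the acute phase and of antimicrobial defence, were among the lowest of all genes in aged members. Saa3 was at 5075 CPM in young and 396 CPM in aged members, 12.8-fold lower. Its ratio was 0.0781 in members and 0.0472 in the other gated cells. Collagen-high cells had 6067 and 4872 CPM of Saa3, so the difference there was smaller. Wfdc21 was at 497 and 7.62 CPM, 65.3-fold lower, and the siderophore-binding lipocalin Lcn2 at 177 and 15.8 CPM, 11.3-fold lower.

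Neutrophil markers differed in the same direction. The 17 neutrophil markers summed to 1691 CPM in young and 591 CPM in aged members, against 1684 and 604 CPM in the other gated cells, and Ngp and Camp, genes of neutrophil precursors, were at 0 in both libraries of members. At least 3 UMIs of the list were seen in 118 young (78.2%) and 65 aged members (45.1%). In cells with at least 1% of S100a8 and S100a9 UMIs Chil3 was at 387 and 9.32 CPM, below its level in members, whereas Lcn2 was at 3024 and 1507 CPM and Wfdc21 at 1058 and 210 CPM, above theirs. The part of neutrophil RNA in these differences was not tested.

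Genes of non-classical monocytes, the Ly6C-low cells that patrol vessels, were mostly lower in aged members. Of 12 genes compared 8 were lower and none of the 12 was higher, with a median of −0.70 (TMM −0.89) and −0.17 in the other gated cells. Spn, the sialophorin CD43, was at 26.6 and 6.60 CPM (ratio 0.248). Itgal, the integrin alpha chain of LFA-1, was at 74.2 and 27.9 CPM (0.377), and Treml4, a receptor of the Trem cluster, at 41.0 and 15.8 CPM (0.384). The fractalkine receptor Cx3cr1 was at 37.1 and 20.3 CPM (0.548), Gngt2, a G-protein gamma subunit, at 213 and 133 CPM (0.624), and the nuclear receptor Nr4a1 at 76.4 and 50.8 CPM (0.665). Pglyrp1 (0.253) and Adgre4 (0.369) were the other 2 lower genes. Few UMIs lay outside the 10 highest cells of each library for Spn (11 young, 0 aged), Pglyrp1 (8 and 0) and Adgre4 (24 and 2). Ear2 and Dusp16 had ratios of 0.9404 and 1.24. Cells with at least 1% of S100a8 and S100a9 UMIs had 89.4 and 82.6 CPM of Treml4 and 396 and 173 CPM of Nr4a1, above the members. Spn (6.93 and 9.94 CPM) and Cx3cr1 (22.7 and 47.0 CPM) were there below the young and above the aged members. The part of neutrophil RNA in the non-classical genes was not tested.

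**Figure D3:**
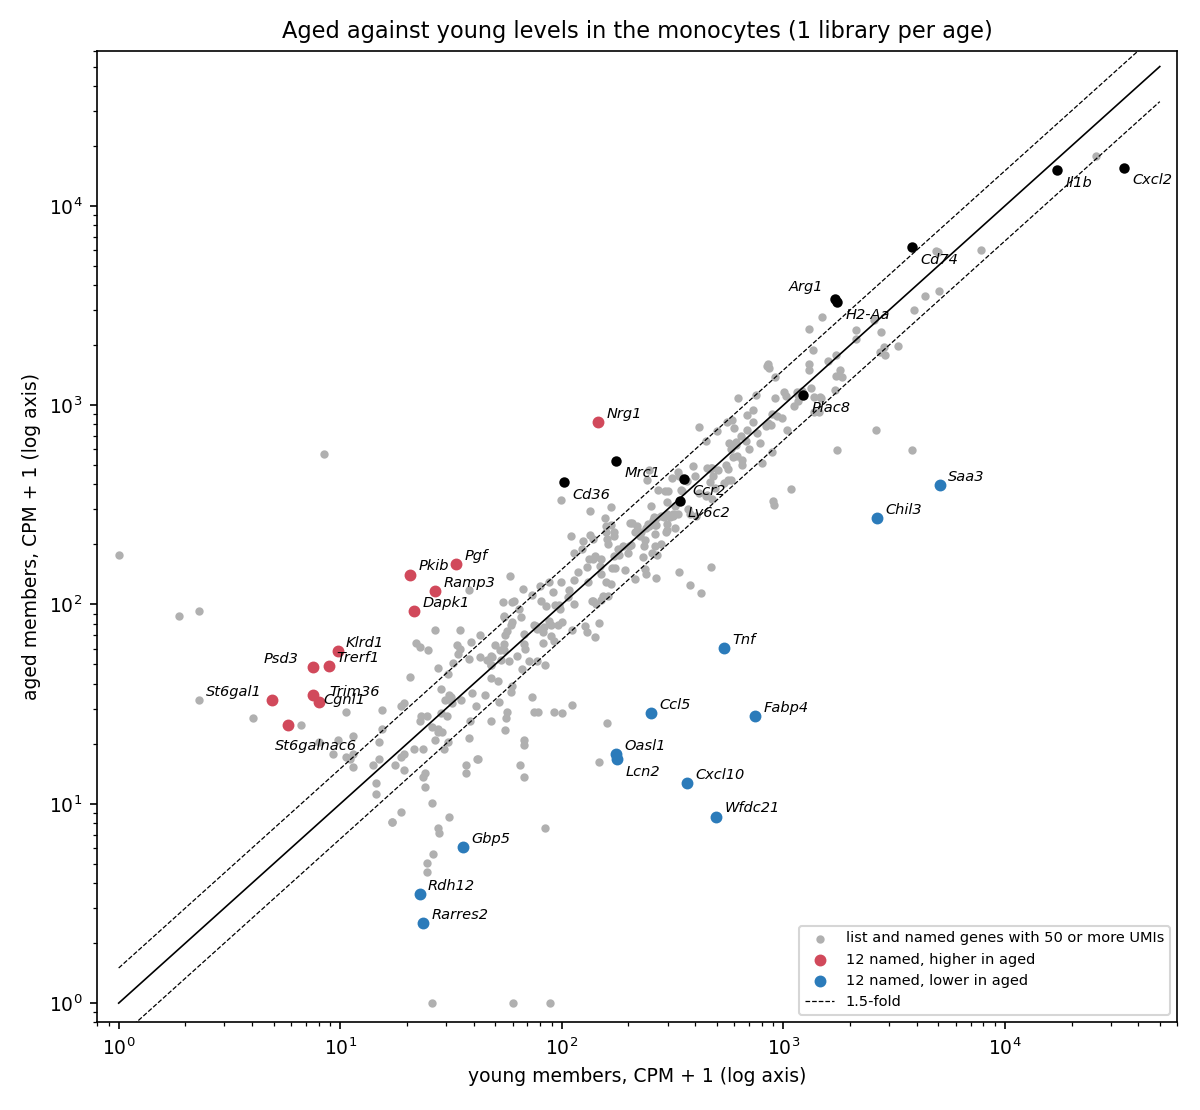
Level of the list genes and the named genes in aged members (y axis) against young members (x axis), both as CPM plus 1 on log axes, with the line of equal levels and 1.5-fold lines. Red and blue points are the 12 genes with the highest and the 12 with the lowest ratio by the naming rule. Ly6c2, Plac8 and Ccr2 lie near the line of equal levels.

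Inflammatory cytokine genes were lower in the aged library in members and in the other gated cells alike. Of 16 genes 10 were lower and 1 higher in aged members, with a median of −0.86 (TMM −1.05). The other gated cells had a median of −0.75, with the same counts of 10 and 1. Tnf, the tumour necrosis factor, was at 537 CPM in young and 59.4 CPM in aged members, 9.04-fold lower (ratio 0.111, 0.0908 to 0.134), and in the other gated cells its ratio was 0.587. Tnf was at 0 in 55 young and 111 aged cells. After thinning it was seen in 31.8% of young and 5.59% of aged members, against 34.7% and 23.7% of the other gated cells.

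Il1a was at 1083 and 379 CPM (ratio 0.350), Il6 at 339 and 144 CPM (0.425), and Csf3, the growth factor of neutrophils, at 472 and 152 CPM (0.323). Il18 was at 55.9 and 27.9 CPM (0.5003). Ptgs2, the inducible cyclooxygenase, was at 2720 and 1841 CPM, and its ratio of 0.677 was just short of 1.5-fold. Ptges, the prostaglandin E synthase, had a ratio of 0.546, the epidermal-type interleukin Il36g 0.471 and the cytokine Lif 0.663. Nos2, which is also in the interferon-gamma-type list below, was the other lower gene. Il23a, a subunit of interleukin-23, was at 77.2 and 27.9 CPM (0.362), but 10 cells held 93.2% of its young and all of its aged UMIs.

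Il1b differed less. Its ratio was 0.874 (0.861 to 0.888) in members, against 0.597 in the other gated cells, and its median over cells was 139 UMIs per 10000 in young and 136 in aged members. Nlrp3, the inflammasome sensor that leads to interleukin-1 beta release, had a ratio of 1.06 by CPM and below 1, 0.915, by TMM. The higher gene of the list was Ebi3, a subunit of interleukin-27 and interleukin-35, with a ratio of 1.60 and a wide interval of 0.918 to 2.83.

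Chemokine ligands are described by the cells they draw. Of 16 genes 8 were lower and 3 higher in aged members, with a median of −0.47 (TMM −0.68) and −0.20 in the other gated cells. The ligands of Cxcr2, which draw neutrophils, were lower. Cxcl1 was at 2611 and 751 CPM (ratio 0.288), Cxcl2 had a ratio of 0.451 (0.445 to 0.457) and Cxcl3 one of 0.599. Ccl3, Ccl4 and Ccl5, which draw monocytes and T cells, were lower too. Ccl3 was at 1743 and 592 CPM (0.340), Ccl4 at 3796 and 592 CPM (0.156; 0.518 in the other gated cells) and Ccl5 at 251 and 27.4 CPM (0.109). Only 113 young and 0 aged Ccl5 UMIs lay outside its 10 highest cells in each library.

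Of the Ccr2 ligands, Ccl2 was at 696 and 604 CPM and Ccl7 had a ratio of 1.51 by CPM and 1.30 by TMM, which became 0.855 without the 10 cells of each library that held most of its UMIs. Ccl6, a chemokine of rodent myeloid cells, was at 754 and 1127 CPM. The eotaxin Ccl24 had 7 and 51 UMIs, all of them in 10 cells or fewer per library. Aged members thus had less of these neutrophil-attracting ligands and of Ccl3, Ccl4 and Ccl5, while Ccl2 was within 1.5-fold.

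The receptors that guide monocytes include the formyl peptide receptors, which sense bacterial and mitochondrial peptides. Of 21 trafficking genes 5 were lower and 2 higher, with a median of −0.09. By TMM 8 were lower and 1 higher, with a median of −0.30. Fpr1 was at 160 and 24.4 CPM (ratio 0.153; 0.228 in the other gated cells) and Fpr2 at 99.5 and 27.4 CPM (0.276). Cx3cr1 and Itgal, given above, were also lower. The higher genes were Cxcr4, the receptor of Cxcl12 (1.67), and Itgax, which encodes CD11c, at 10.5 and 20.8 CPM (1.99). By TMM Cxcr4 (1.44) fell short of 1.5-fold. Only 2 young and 13 aged Itgax UMIs lay outside its 10 highest cells in each library. Among 20 cytokine and growth factor receptors 3 were higher and none of the 20 lower, beside 19.1% and 5.7% of all genes. The median was 0.22, and by TMM 1 was higher and 1 lower, with a median of 0.02. Higher by CPM were Il10ra (1.80), Il6ra (1.61) and Il4ra (1.54). Csf2rb, the shared beta chain of the receptors for GM-CSF, interleukin-3 and interleukin-5, was at 501 and 738 CPM (1.47), while its partner Csf2ra had a ratio of 0.764.

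Interferon-gamma, made by T and natural killer cells, induces its own set of genes in monocytes. Of 16 genes 8 were lower and none of the 16 higher, with a median of −0.54 (TMM −0.73), against +0.06 in the other gated cells. Cxcl10, a chemokine for activated T cells, was at 367 CPM in young and 11.7 CPM in aged members, 31.4-fold lower (ratio 0.0318, 0.0201 to 0.0481). Its ratio was 0.426 in the other gated cells, and in collagen-high cells it was the reverse, 289 CPM in young and 776 CPM in aged. Thinned to equal depth, 15.9% of young and 0.699% of aged members had a Cxcl10 UMI, against 22.6% and 39.4% of collagen-high cells. Most Cxcl10 UMIs of young members were in 10 cells, with 197 young and 0 aged UMIs outside the 10 highest of each library.

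Cxcl9 had 200 UMIs in young members, all in 6 cells (3.97%), and 0 in aged members, which is at least 57.3-fold lower against a floor of 3 UMIs in the aged sum. Gbp5 (34.9 and 5.08 CPM, ratio 0.146), Gbp2 (0.388), Gbp7 (0.627), Iigp1 (0.297) and Irgm1 (0.412), GTPases of cell-autonomous defence, were lower. Gbp5 had 16 young and 0 aged UMIs outside its 10 highest cells in each library. Without its 10 highest cells in each library Irgm1 had a ratio of 0.837, and all Iigp1 UMIs were in 10 cells or fewer per library. Nos2, the inducible nitric oxide synthase, was at 265 and 135 CPM (0.508). Irf1 (1.12, and 0.967 by TMM) and the immunoproteasome subunit Psmb9 (1.28) were at like or slightly higher levels.

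The wider interferon list was mixed. Of 26 genes 5 were lower and 3 higher in aged members, with a median of −0.13 and −0.06 in the other gated cells. By TMM 7 were lower and 1 higher, with a median of −0.31. Oasl1 was at 175 and 16.8 CPM, 10.4-fold lower (0.0961, 0.0652 to 0.137), with 0.672 in the other gated cells. Ifit1 (0.181), Ifit2 (0.173), Rsad2 (0.463) and Ifi205 (0.631) were also lower, although 10 cells or fewer held all Ifit2 UMIs in each library and Rsad2 without its 10 highest cells had a ratio of 0.902. Oas3, at 5.67 and 23.9 CPM (4.21), Oasl2 (1.67) and the transcription factor Stat2 (1.59) were higher. Only 1 young and 21 aged Oas3 UMIs lay outside its 10 highest cells in each library. By TMM Oasl2 (1.44) and Stat2 (1.365) fell short of 1.5-fold. Isg15 had a ratio of 0.783.

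MHC class II genes, which present peptides to helper T cells, were higher in aged members. Of 8 genes compared 6 were higher and none of the 8 lower, with a median of 0.80, whereas the median in the other gated cells was −0.18. By TMM the median was 0.59 and 4 of the 8 were higher, since Cd74 (1.41) and H2-DMa (1.44) fell short of 1.5-fold. Without cells with 3 UMIs of lymphoid or plasmacytoid markers, which leaves 55 young and 28 aged members, the median was 0.02. H2-Aa was at 1751 CPM in young and 3296 CPM in aged members (ratio 1.88, 1.81 to 1.96; 0.878 in the other gated cells). H2-Ab1 was at 1494 and 2755 CPM (1.84), H2-Eb1 at 1302 and 2421 CPM (1.86), and Cd74 at 3799 and 6220 CPM (1.64, 1.59 to 1.68; 0.892 in the other gated cells). H2-Aa and H2-Ab1 encode the chains of I-A, and Cd74 the invariant chain that chaperones them. C57BL/6 mice lack a functional E alpha chain.

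The genes of peptide loading went the same way, with H2-DMa at 124 and 206 CPM (1.67) and H2-DMb1 at 109.5 and 219 CPM (1.999). Ciita, the coactivator of class II promoters, had 14.0 and 19.3 CPM and a ratio of 1.38 with an interval from 0.841 to 2.29, so a difference was not detectable at this depth. The protease Ctss, which trims the invariant chain, had a ratio of 1.12 by CPM and 0.968 by TMM. Together the 10 class II genes took 0.859% of the young and 1.52% of the aged members' UMIs, 1.77 times as much (1.73 to 1.80). They took 0.524% and 0.456% in the other gated cells.

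Cells with much class II made up a larger part of the aged members. A share of at least 1% of UMIs, a limit set after the values were seen, was reached by 34 of 151 young members (22.5%, 16.1 to 30.0%) and 61 of 144 aged members (42.4%, 34.2 to 50.9%), 1.88 times as many (1.22 to 2.95). Near that limit, between 0.5% and 2%, lay 21 young and 35 aged cells. Within the cells at 1% or more, class II took 3.26% of young and 3.39% of aged UMIs, a ratio of 1.04, and within those under 1% it took 0.139% and 0.209%. The split is on class II itself, so levels within each side are a description. When each library was cut into 4 bins of like size by its own class II share, the aged share was higher in each bin, 2.45, 8.25, 4.27 and 1.46 times from the lowest to the highest.

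The share of cells at 1% or more was also higher in aged members with a Ly6c2 UMI. Of these, 22 of 114 young (19.3%) and 35 of 86 aged cells (40.7%) were at 1% or more, a ratio of 2.11 (1.20 to 3.77). In members with both Ly6c2 and Plac8 UMIs class II took 0.616% of young and 1.46% of aged UMIs. Those with Plac8 only had 1.98% and 1.69%, without the higher value in aged cells. Members with Ly6c2 only had 0.0163% and 0.0309%.

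Markers of conventional dendritic cells were low in sum but higher in members than in the other gated cells. The 12 of them summed to 92.9 CPM in young and 112 CPM in aged members (38.3 and 51.8 CPM in the other gated cells). At least 3 UMIs of the list were seen in 10 young (6.62%) and 18 aged members (12.5%). Clec9a and Ccl22 were at 0 in both, while Ccr7 and Cd209a of the list were expressed. Plasmacytoid dendritic cell markers summed to 228 and 352 CPM (205 and 304 CPM in the other gated cells), with Siglech at 0 in both. Cd209a, a lectin of monocyte-derived antigen-presenting cells, was at 33.6 and 58.9 CPM, in 1.33% of young and 8.33% of aged members. The part of dendritic cells in the class II values was not tested beyond these levels.

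**Figure D4:**
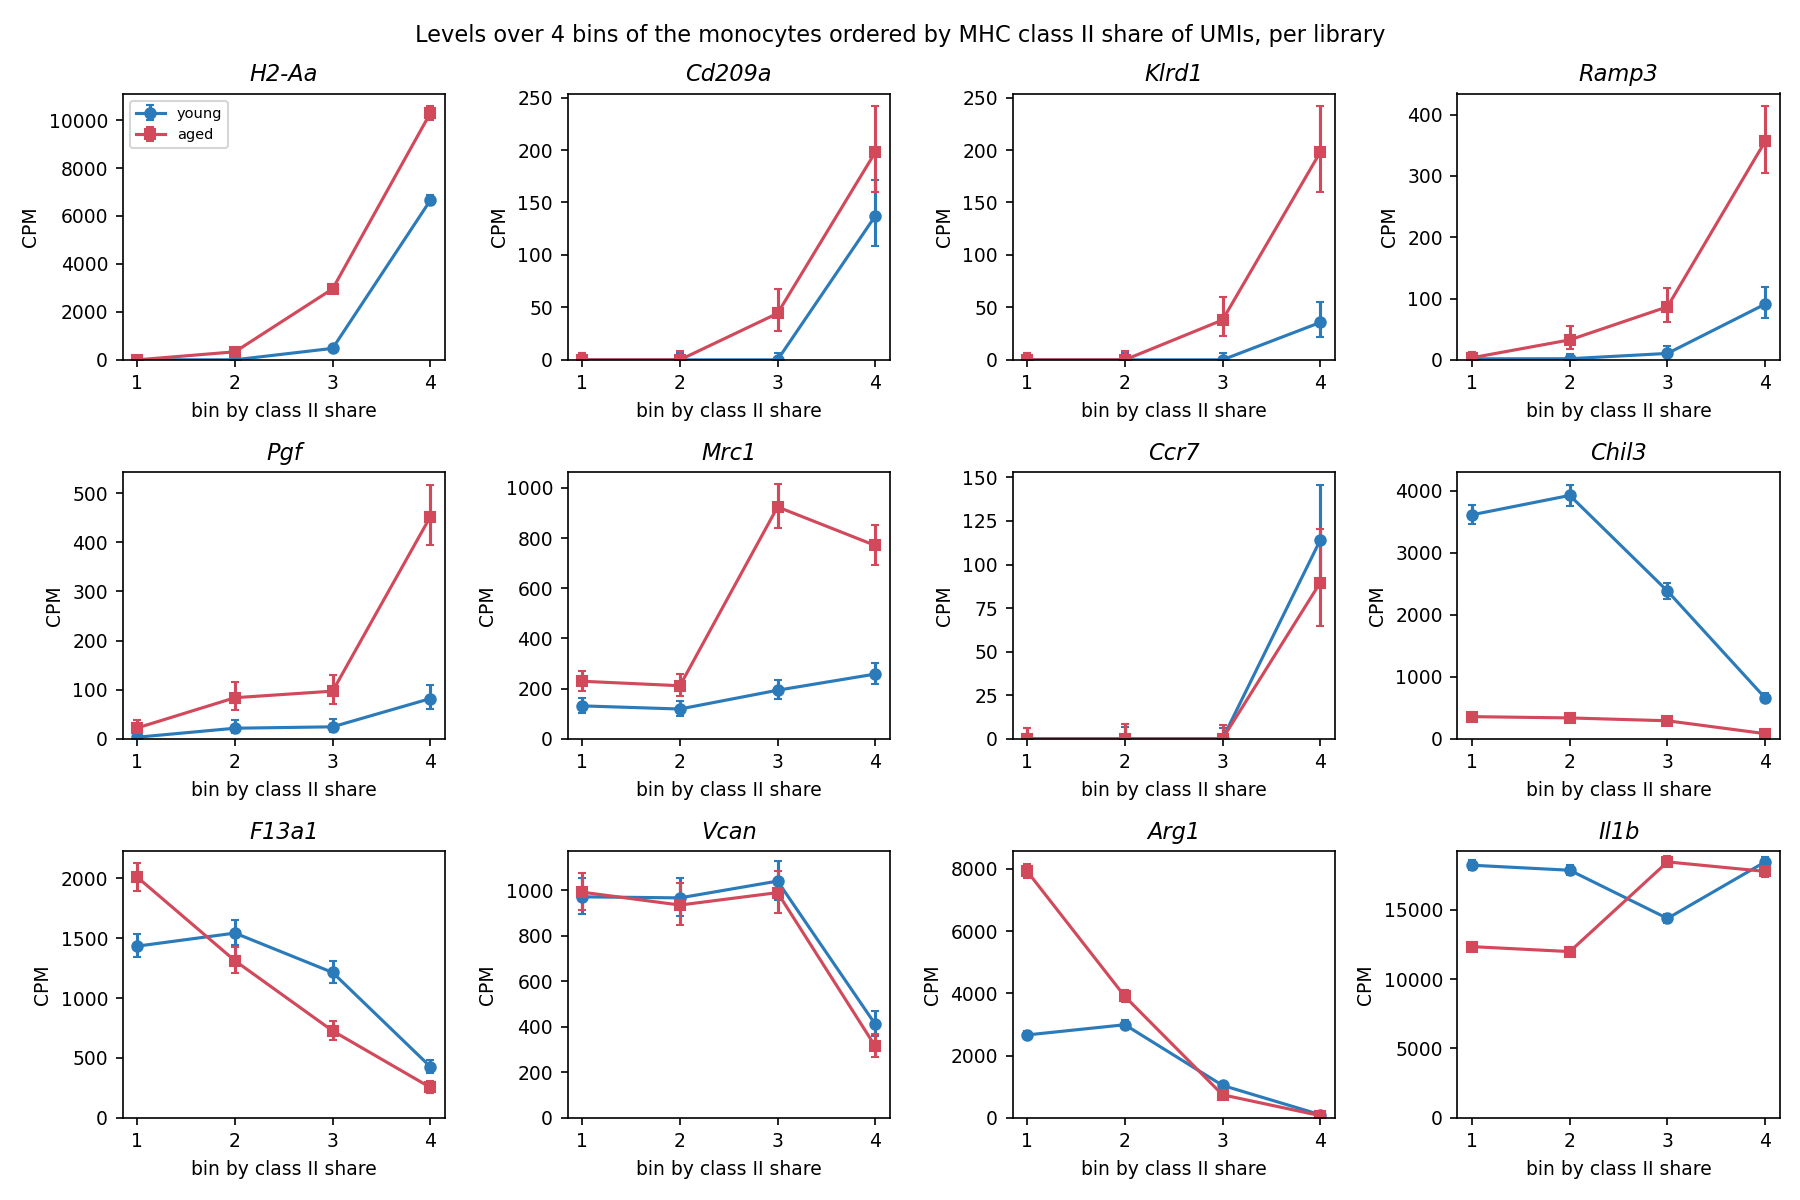
Levels (CPM) of 12 genes over 4 bins of the members of like size, ordered within each library by the share of UMIs from 10 MHC class II genes, for young (circles) and aged (squares) cells, with exact 95% counting intervals. H2-Aa goes up by construction. Ramp3 and Pgf are highest and Chil3, F13a1 and Arg1 lowest in the top bin of both libraries.

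The members formed a range from class II-low to class II-high cells, shown here by 4 bins of each library, 36 to 38 cells each, as a description. F13a1 and Vcan, of the classical list, were lowest in the top bin. F13a1 was at 1433, 1542, 1213 and 427 CPM from the lowest to the highest young bin, and at 2008, 1311, 726 and 254 CPM in the aged ones. Vcan was level over 3 bins (971, 966 and 1040 CPM young, 991, 935 and 989 CPM aged) and at 411 and 314 CPM in the last. Ly6c2 was not confined to the low bins, with 298, 502, 354 and 208 CPM in young and 217, 560, 327 and 267 CPM in aged cells.

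Arg1, which breaks down arginine, was also lowest in the top bin. It was at 2663, 2991, 1042 and 102 CPM in the young bins and at 7918, 3899, 741 and 70.8 CPM in the aged ones. Nos2, which uses the same amino acid, was at 296, 398, 354 and 10.7 CPM in young and 339, 144, 10.6 and 0 CPM in aged bins. Spp1, osteopontin, was highest in the first bin in both, at 2078 and 4057 CPM, against 383 and 49.98 CPM in the last. Il1b had no such gradient, with 18204 and 18442 CPM in the first and last young bins and 12337 and 17760 CPM in the aged ones.

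Several genes were seen nearly or wholly in class II-high members. Cd209a was at 0 in the first 3 young bins and at 137 CPM in the last, and at 0, 0, 44.3 and 198 CPM in the aged bins. Ccr7, the receptor that leads cells to lymph nodes, was at 0 in all but the last bin, which had 114 CPM in young and 89.5 CPM in aged cells. All Ccr7 UMIs were in 10 cells or fewer per library, and Ccr7 and Cd209a are both on the list of conventional dendritic cell markers. Klrd1, a lectin known from natural killer cells, followed Cd209a, with 35.6 CPM in the last young bin and 38.0 and 198 CPM in the last 2 aged ones. Csf2rb was at 374, 446, 517 and 677 CPM in young and 361, 370, 907 and 1360 CPM in aged bins.

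Several age differences were examined on both sides of the 1% limit. Chil3 had an aged-to-young ratio of 0.103 in cells under 1% and 0.265 in those above, Tnf 0.146 and 0.0595, Saa3 0.0913 and 0.0789, and Cxcl10 0.0456 and 0.0143. These 4 genes were lower in aged members on both sides of the limit. Mrc1 had ratios of 1.95 and 3.28, and Arg1 2.49 and 4.22. The Arg1 ratio above the limit rested on few cells. The median cell there had 0 Arg1 UMIs in both libraries, and 1 aged cell of 27608 UMIs had 73.2 per 10000. Among cells under 1% the median cell had 22.2 UMIs of Chil3 per 10000 in the young and 1.11 in the aged library.

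By list, the median of the inflammatory cytokines was −0.48 under 1% and −0.40 above, and that of the non-classical genes −0.71 and −0.67, beside 0.19 and 0.16 for all genes. The interferon-gamma-type list had −0.19 and −0.86, and the macrophage maturation list 0.84 and 0.07.

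More macrophage maturation genes were higher than lower in aged members. Of 15 compared 8 were higher and 2 lower, with a median of 0.57 and 0.03 in the other gated cells. By TMM 6 were higher and 2 lower, with a median of 0.37. Mrc1, the mannose receptor CD206, was at 175 CPM in young and 525 CPM in aged members (ratio 2.999, 2.67 to 3.37; 1.51 in the other gated cells). It was at 0 in 103 young and 59 aged cells, and after thinning 13.3% and 39.2% of members had a UMI of it. The other gated cells had 51.1% and 55.8%. In Mrc1 the aged members lay closer to the other gated cells than the young members did.

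Ms4a7, a membrane protein of macrophages that counts towards the gate but not towards membership within it, was at 37.1 and 117 CPM (3.16, 2.46 to 4.11; 1.11 in the other gated cells). Trem2, a lipid-sensing receptor, was at 53.2 and 102 CPM (1.91), and the apoptotic cell receptor Mertk had a ratio of 2.27 but only 6 aged and 0 young UMIs outside its 10 highest cells. The tetraspanin Cd63 (1.66) and the transcription factor Maf (1.52) were higher. Spp1 (844 and 1580 CPM, 1.87) and the platelet factor Pf4 (859 and 1543 CPM, 1.80) rested on few cells, with 87.0% of aged Spp1 and 92.2% of aged Pf4 UMIs in 10 cells, and without these 10 in each library Spp1 had a ratio of 0.899 and Pf4 of 5.59, from 53 and 238 UMIs. Gpnmb (0.410) and the fatty acid binding protein Fabp5 (239 and 142 CPM, 0.593) were lower.

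Repair and alternative activation genes, which share Mrc1, Spp1, Fn1 and Chil3 with lists above, went both ways. Of 21 compared 9 were higher and 5 lower, with a median of 0.30 (TMM 0.09) and 0.09 in the other gated cells. Arg1 was at 1710 and 3397 CPM (1.99, 1.91 to 2.07; 1.07 in the other gated cells), with 100 young and 80 aged cells at 0. Clec10a, a galactose lectin, had a ratio of 2.15, the growth factor Pdgfa 1.98 and the crosslinking enzyme Tgm2 1.57. Il10, the anti-inflammatory interleukin, was at 378 and 124 CPM (0.328), and Il1rn, the antagonist of the interleukin-1 receptor, at 1453 and 919 CPM (0.633). Areg, a growth factor of the EGF family, had a ratio of 0.663 and the lectin Mgl2 of 0.651, with all Mgl2 UMIs in 10 cells or fewer per library.

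Vegfa was at 251 and 310 CPM and Thbs1, thrombospondin-1, at 4971 and 5894 CPM (1.19; 0.848 in the other gated cells). Tgfb1 had a ratio of 1.01 by CPM and 0.871 by TMM. Retnla had 0 UMIs in young members and 346 in aged ones, all of them in 1 cell. In the 14 young and 4 aged members with Ly6c2 only, Arg1 was at 7545 and 8863 CPM, while Ccr2 was at 66.0 and 0 CPM. Members with both genes had 430 and 539 CPM of Ccr2, and those with Plac8 only 261 and 309 CPM.

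Lipid handling genes included Cd36, a receptor for oxidised lipids and apoptotic cells. Of 25 lysosome and lipid genes 9 were higher and 4 lower, and the median of 0.13 by CPM turned to −0.09 by TMM. Cd36 was at 102 and 410 CPM (4.03, 3.48 to 4.69; 2.70 in the other gated cells), and the cholesterol exporter Abca1 at 416 and 772 CPM (1.86). Glb1, the lysosomal beta-galactosidase, had a ratio of 2.91, and the protease Ctsl 1.73. The lipase Lpl had a ratio of 3.01, with 6 aged and 0 young UMIs outside its 10 highest cells. Acp5 (0.528), Gpnmb and Fabp5 were lower. Fabp4 was at 743 and 26.4 CPM (0.0356), a difference of a few cells, because 99.0% of its young UMIs were in 3 of them.

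Efferocytosis genes, 3 higher and 1 lower of 13, had a median of 0.20 by CPM and −0.003 by TMM. The shares over all genes were 19.1% higher and 5.7% lower. Besides Cd36 and Mertk, Itgb5 (1.89) was higher, and Cd300lf (0.585) was lower.

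Among pattern recognition receptors 4 of 23 were higher and 2 lower, beside 19.1% and 5.7% of all genes. Their median was 0.00 (TMM −0.18). Tlr4, the endotoxin receptor, was at 57.6 and 137 CPM (2.38), Clec7a, the beta-glucan receptor dectin-1, at 246 and 470 CPM (1.91), and Tlr1 had a ratio of 1.69. Clec4e, the receptor Mincle, was at 2864 and 1778 CPM (0.621), and Nod1 had a ratio of 0.483.

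The matrix, protease and coagulation genes, 7 higher and 4 lower of 23, had a median of 0.10 by CPM and −0.11 by TMM, which gave 5 higher and 6 lower. Mmp12, the macrophage elastase, was at 98.6 and 333 CPM (3.37, 2.90 to 3.94), while in the other gated cells it was lower in the aged library, with a ratio of 0.606. Only 9 young and 22 aged Mmp12 UMIs of members lay outside its 10 highest cells in each library. Timp2 (2.86) and Timp1 (1.87), inhibitors of proteases, were higher. Mmp13 had a ratio of 2.77, with all UMIs in 10 cells or fewer per library. Mmp8, the neutrophil collagenase, had a ratio of 0.277, and coagulation factor F10 was at 893 and 331 CPM (0.371).

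Of the transcription factors of monocyte fate, 4 of 22 were higher and 2 lower, with a median of 0.10 by CPM and −0.11 by TMM. Over all genes 19.1% were higher and 5.7% lower by CPM, so the share of higher genes was near that background. Tfec (1.72), Mitf (112 and 180 CPM, 1.60), Maf and Irf4 (1.57) were higher, though by TMM no gene of the list was 1.5-fold higher and 3 were lower. Irf4 had 4 aged and 0 young UMIs outside its 10 highest cells. Nr1h3, the oxysterol receptor LXR-alpha, had a ratio of 0.454. Klf4 had a ratio of 1.06 by CPM and 0.911 by TMM.

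By CPM none of 23 glycolysis and hypoxia genes was past 1.5-fold in either direction, with a median of −0.15. By TMM 4 of them were lower, with a median of −0.36. Ldha (0.720) and Ndrg1 (0.722) were the lowest of them and P4ha1 (1.33) and Pfkp (1.28) the highest. In the antioxidant and iron list 2 of 22 were higher, Gclc (2.19) and Gclm (1.57, and 0.960 without its 10 highest cells per library), the subunits of the enzyme that limits glutathione synthesis, and 2 lower, Cybb, the NADPH oxidase subunit (0.643), and Sod2 (0.658). By TMM 1 was higher and 4 lower. The S100 and annexin list had no gene past 1.5-fold among 16 by CPM and 5 lower by TMM (median −0.03, TMM −0.24), with Anxa2 (0.670) and S100a10 (0.736) lowest and Anxa3 and Anxa4 highest. Of 25 immediate early and dissociation stress genes 5 were lower, led by the heat shock genes Hspa1b (0.192) and Hspa1a (0.231), and 2 higher, Egr1 (1.74) and Fosl2 (1.53), with a median of −0.15. By TMM 11 were lower and none of the 25 higher, with a median of −0.36.

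The senescence genes, after which the study asked, were mostly within 1.5-fold. Of 14 genes compared 3 were higher and 1 lower, beside 19.1% and 5.7% of all genes. The median was 0.00 (TMM −0.20) and 0.16 in the other gated cells. By TMM 1 was higher and 3 lower. Cdkn1a, the cell cycle inhibitor p21, was at 1306 CPM in young and 1616 CPM in aged members. Its ratio was 1.24 (1.18 to 1.30) by CPM and 1.065 by TMM, with 1.14 by CPM in the other gated cells. Cdkn1a was seen in 97.4% and 98.6% of members, at a median of 10.5 and 14.97 UMIs per 10000. Lmnb1, the nuclear lamina protein that senescent cells lose, was at 243 and 419 CPM (1.73), Glb1 was higher as given above, and Igfbp7 (0.105) was lower, with young UMIs in 7.95% of cells. Proliferation genes were scarce, and only 6 of 28 had 50 UMIs. Of these Top2a (0.225) was lower, with 1 young and 0 aged UMIs outside its 10 highest cells, and Mki67 had a ratio of 1.04 by CPM and 0.892 by TMM. By TMM 3 of the 6 were lower.

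**Figure D5:**
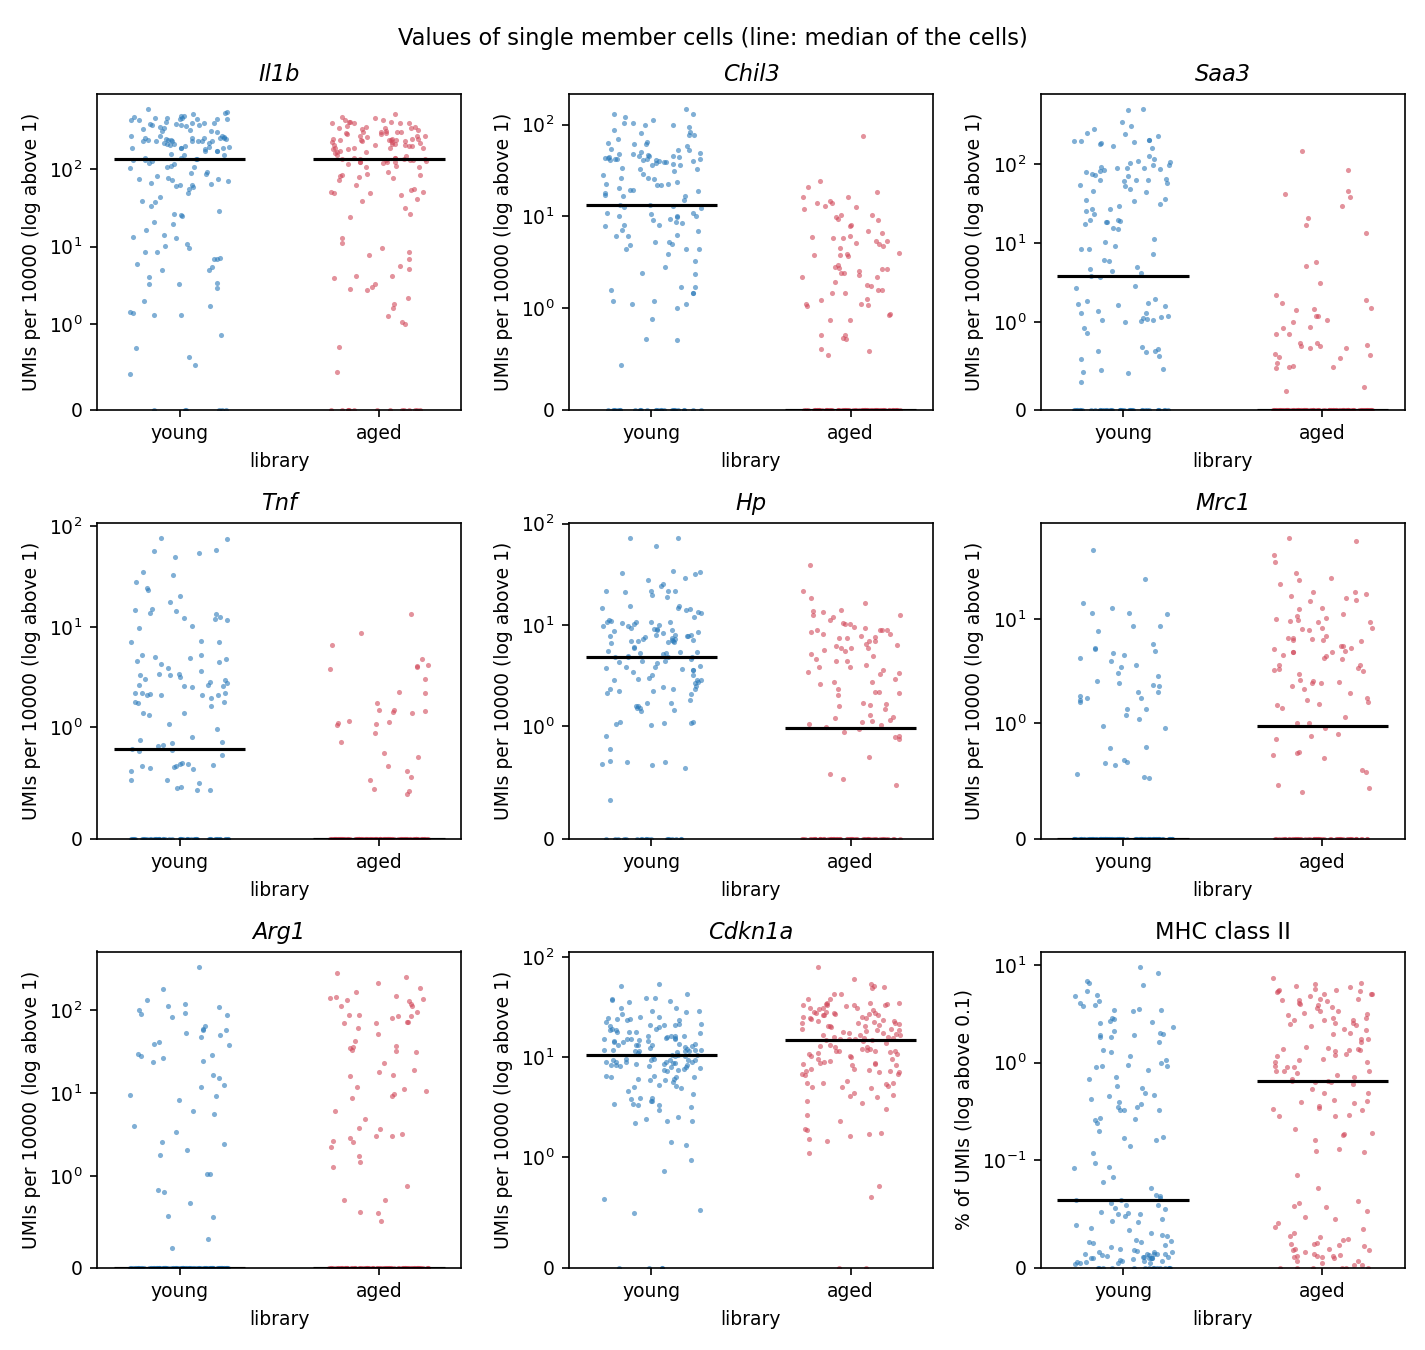
Values of single members in the young (151 cells) and aged (144 cells) library, as UMIs per 10000 of a cell (log scale above 1) for 8 genes and as percent of UMIs (log scale above 0.1) for MHC class II. Lines are medians. Il1b has like medians, 139 and 136, while Chil3, Tnf and Saa3 have an aged median of 0.

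Among all genes, the 12 with the highest aged-to-young ratio by the naming rule were St6gal1, Psd3, Pkib, Klrd1, Trerf1, Nrg1, Cgnl1, St6galnac6, Pgf, Trim36, Ramp3 and Dapk1, with ratios from 8.15 down to 4.48. Nrg1, the growth factor neuregulin-1, had the most UMIs of them, at 145 CPM in young and 818 CPM in aged members (5.63, 5.003 to 6.36; 1.79 in the other gated cells). It was higher in aged cells both under 1% of class II (9.07) and above (2.44). Pgf, placental growth factor of the VEGF family, was at 32.3 and 158 CPM (4.91; 0.851 in the other gated cells). Ramp3, which pairs with the calcitonin receptor-like receptor, was at 25.7 and 116 CPM (4.50; 0.924).

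Pgf and Ramp3 followed class II within both libraries. Pgf was at 3.33, 21.6, 24.4 and 81.9 CPM over the young bins and 22.3, 83.7, 97.1 and 452 CPM over the aged ones. Ramp3 was at 1.66, 1.80, 10.5 and 90.8 CPM and at 3.42, 32.6, 86.5 and 356 CPM. Pkib, an inhibitor of protein kinase A, was at 19.6 and 140 CPM (7.14), and its level of 425 CPM in the top aged bin stood against 17.8 CPM in the top young one. Its ratio was 1.52 under 1% of class II and 25.8 above. Without the 10 highest cells of each library the Pkib ratio was 3.29, from 19 young and 53 aged UMIs. Klrd1 was at 8.73 and 57.4 CPM (6.58), with UMIs in 1.99% of young members.

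St6gal1, a sialyltransferase, was at 3.93 and 32.0 CPM (8.15, 4.03 to 18.6). St6gal1, Psd3, Klrd1, Cgnl1 and St6galnac6 had no young UMI outside their 10 highest cells, so their ratios rest on few young cells. Outside the 10 highest aged cells lay 23, 15, 16, 8 and 21 aged UMIs of these genes, in that order. Most aged UMIs of Psd3, Klrd1 and Cgnl1 were thus in 10 aged cells. The death-associated kinase Dapk1 had a ratio of 4.48, against 1.12 in the other gated cells.

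The 12 lowest were Wfdc21, Cxcl10, Fabp4, Rarres2, Saa3, Lcn2, Oasl1, Chil3, Ccl5, Tnf, Rdh12 and Gbp5, of which most are described above. Rarres2, the chemoattractant chemerin, had 52 UMIs in young and 3 in aged members, a ratio of 0.0672 (0.0134 to 0.208), and Rdh12, a retinol dehydrogenase, had a ratio of 0.116. Outside the 10 highest cells of each library lay 7 young Rarres2 and 12 young Rdh12 UMIs, and 0 aged UMIs of either. Rarres2 had a ratio of 0.931 and Fabp4 of 0.973 in the other gated cells, whereas Wfdc21, Saa3 and Chil3 were low there too, with 0.0377, 0.0472 and 0.0985.

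Markers of other cell types were given as sums over each list. T and natural killer cell markers summed to 369 CPM in young and 202 CPM in aged members, and 12 of the 14 were at 0 in the aged ones. Without the 8 young members with at least 3 UMIs of lymphocyte receptor genes, which leaves 143 young and 144 aged cells, the shares and counts above stayed within 1.5 times. Fibroblast markers summed to 326 and 250 CPM (293 and 323 CPM in the other gated cells), with at least 3 UMIs in 92 young (60.9%) and 55 aged members (38.2%). Endothelial markers summed to 154 and 96.02 CPM, of which 3 cells held 82.7% and 72.0%. Erythroid markers summed to 10.9 and 778 CPM, with 1 aged cell at 3 UMIs or more. Keratinocyte markers were at 2.18 and 1.02 CPM. Osteoclast markers, at 88.1 and 117 CPM in members, were at 959 and 350 CPM in the other gated cells. B or plasma cell markers summed to 141 and 176 CPM, with 6 of 8 at 0 in each library, platelet markers to 31.0 and 34.6 CPM, and mast cell or basophil markers to 5.67 and 11.2 CPM. The part of these cells in the differences between the ages was not tested.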

How the data were processed

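Single-cell RNA-seq was done on day 6 wounds, with 1 library of pooled mice per age. The authors deposited a matrix of UMI counts, not normalized, over 33696 features per library, and the file headers credit Cell Ranger 8.0.1. Another version, Cell Ranger 9.0, stands in the submitters' processing notes together with STAR, Seurat 4 and GRCm38/mm10. The labels name kit version 3 and 3.1. The libraries held 4932 and 4379 barcodes, of which 4661 and 4210 were kept. Scrublet in scanpy 1.11.5 called 3 young and 2 aged doublets (0.0644% and 0.0475%), so in effect it did not work and doublets may remain.

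UMIs were summed per library and group of cells and divided by the group's total (CPM). Shares have Clopper-Pearson intervals and ratios exact conditional binomial intervals, at 95%. These cover counting error only. With 1 library per age there is no test. Genes with 50 UMIs or more were counted at 1.5-fold between ages, and at 2-fold in both libraries between members and the other gated cells. Named genes are the 12 highest and 12 lowest with an interval beyond 1.5-fold and UMIs in 10% of the cells of the higher library (unnamed, ribosomal, mitochondrial, haemoglobin, immunoglobulin and sex-linked genes left out), the same for members against the other gated cells, the 2 highest and 2 lowest of each list and fixed marker genes. Other members of a list are named to fill its groups and were picked with their values seen. Members and gene lists were chosen with earlier results of these data known. TMM factors came from edgeR 4.0.16 in R 4.3.3. Other tools were Python 3.11.15, numpy 2.4.6, scipy 1.17.1, pandas 2.3.3 and matplotlib 3.10.9. A few genes of the lists are not reported here. The scripts were tested on simulated data.

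Alternatives were other limits of the rule, TMM, the mean of per-cell CPM, other count minimums, the pseudocount and leaving out cells. Promoter sequences are from RefSeq (GRCm38.p6).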

Additional observations from a re-analysis of the deposited data

Results flagged for a closer look

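In 2 genes the aged-to-young ratio went in opposite directions in the monocytes and in the other gated cells, beyond 1.5-fold with its counting interval in both. Il23a had a ratio of 0.362 (0.262 to 0.492) in members and 1.96 in the other gated cells. Its UMIs were held by few cells, with 93.2% of the young and 100% of the aged UMIs of members in 10 cells, and 0 aged UMIs remained outside them. Mmp12 had a ratio of 3.37 (2.90 to 3.94) in members and 0.606 in the other gated cells. Its UMIs too were held by few cells, and 9 young and 22 aged UMIs of members lay outside the 10 highest cells. With 1 library per age the difference between the 2 populations was not tested for either gene.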

How the results depend on the processing

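TMM scaling gave 653 higher and 695 lower genes in aged members. A minimum of 20 UMIs gave 2020 and 779, with 275 genes higher in members than in the other gated cells, and a minimum of 1 UMI gave 5180 and 3573, with 761 higher and 3162 lower in members. Leaving out cells with 3 UMIs of lymphoid or plasmacytoid markers kept 55 young and 28 aged members, because those lists hold Il7r, Xbp1, Tcf4 and Runx2, which the members express. The ratio of member shares was then 0.546 of cells kept and 0.350 of gated cells, the counts were 561 higher and 228 lower in aged members and 70 higher and 347 lower in members than in the other gated cells, and Psd3 had a ratio of 0 where the full set had 7.30. Of 553 values of 33 named genes under all alternatives, including splits by class II added after seeing the data, 401 stayed within the counting interval of the reported value, 151 moved beyond it and that of Psd3 reversed. Of 352 list medians between the ages 326 stayed and 26 moved. Other limits of the rule kept between 112 and 162 aged members. No paired analysis was possible because each age has 1 library, and for the same reason no library could be left out. Depth limits genes with few UMIs, and 1 library per age limits every comparison.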
